A study of Rattus norvegicus with 12 samples.

Results

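The expression of 7 matrix metalloproteinase genes (Mmp2, Mmp3, Mmp9, Mmp10, Mmp12, Mmp13 and Mmp14) and 3 genes for their tissue inhibitors (Timp1, Timp2 and Timp3) was measured in rat esophagus, together with peaks of N6-methyladenosine (m6A), a modified base found in many messenger RNAs. The genes were chosen by symbol, and all 10 were found among the 17450 genes of the count table. The lists of m6A peaks held 113141 peaks, of which 54 were named for 6 of these genes. The BE group was esophageal tissue of rats after esophagoduodenostomy (EDA), in which surgery lets duodenal contents flow into the esophagus, used to model Barrett's esophagus in the rat. The NC group was esophageal tissue of rats with no treatment. The labels state no strain, age or time after surgery, and they name no sham operation. Each group had 3 input libraries of RNA without immunoprecipitation and 3 libraries immunoprecipitated (IP) for m6A. Whether the 3 were separate animals is not stated, so the tests below compare sample with sample only, and part of the spread may be technical.

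Matrix metalloproteinases are zinc-dependent enzymes that cut collagens, elastin, laminins, fibronectin and other proteins outside the cell. Most are secreted as inactive proforms that other proteases cut open, and the 4 tissue inhibitors of metalloproteinases, the TIMPs, bind and block the active site. Transcription of several of the secreted enzymes is low in resting tissue and rises with inflammatory cytokines and growth factors, in large part through AP-1, a dimer of Fos and Jun proteins, and in squamous epithelium such as that of the rat esophagus both epithelial cells and underlying fibroblasts and leukocytes can make them.

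Total gene counts ran from 15543460 to 17471748 in the BE input libraries and from 11213531 to 16863737 in the NC input libraries. BE replicate 1 stood apart: the summed level of 9 hepatocyte markers was 7620 CPM (the count as a share of the library's scaled total) there, against 60.4 and 75.6 CPM in the other BE libraries and 105 to 152 CPM in NC. Without that library the log2 fold changes given below for the 9 genes that passed the test ran from -1.93 for Timp3 to 8.63 for Mmp10, and all 9 still passed. Markers of muscle fell widely. The summed level of 10 striated muscle markers was 988 to 1337 CPM in BE and 25700 to 27670 CPM in NC. Of the 10 tested, 9 passed as lower, as did 21.8% of all genes tested. The summed level of 6 smooth muscle markers was 484 to 572 CPM in BE and 3964 to 4558 CPM in NC. Keratinocyte markers summed to 55020 to 59300 CPM in BE and 31740 to 42690 CPM in NC, so squamous epithelium was represented in both groups. All 9 tested keratinocyte markers passed as higher, as did 21.8% of all genes tested. Krt17 rose by 7.31 ± 0.25, Krt14 by 3.58 ± 0.20, Tp63 by 1.62 ± 0.11 and Itga6 by 1.55 ± 0.10 on the log2 scale (SE). Without NC replicate 1, 6 of the 9 passed. Markers of columnar epithelium were not examined here. Tissue composition and the operation cannot be told apart in this design, and in bulk tissue fewer cells of a type and less RNA per cell cannot be told apart either.

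Of the 10 genes, 7 rose in BE, 2 fell and 1 did not pass edgeR's quasi-likelihood test with Benjamini-Hochberg adjustment at 0.05. Among the 13761 genes tested, 43.6% passed, 21.8% as higher and 21.8% as lower. The 5 secreted enzymes Mmp3, Mmp9, Mmp10, Mmp12 and Mmp13 each rose by at least 16-fold, a size that 115 genes, or 0.836% of those tested, reached. The inhibitors moved in both directions: Timp1 rose, and Timp2 and Timp3 fell by at least 2-fold, as did 14.3% of the genes tested. The BE and NC libraries did not overlap for 9 of the 10 genes, against 56.0% of all genes tested. The median log2 fold change was 3.81 over the 10 genes and 0.03 over all genes tested.

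**Figure D1:**
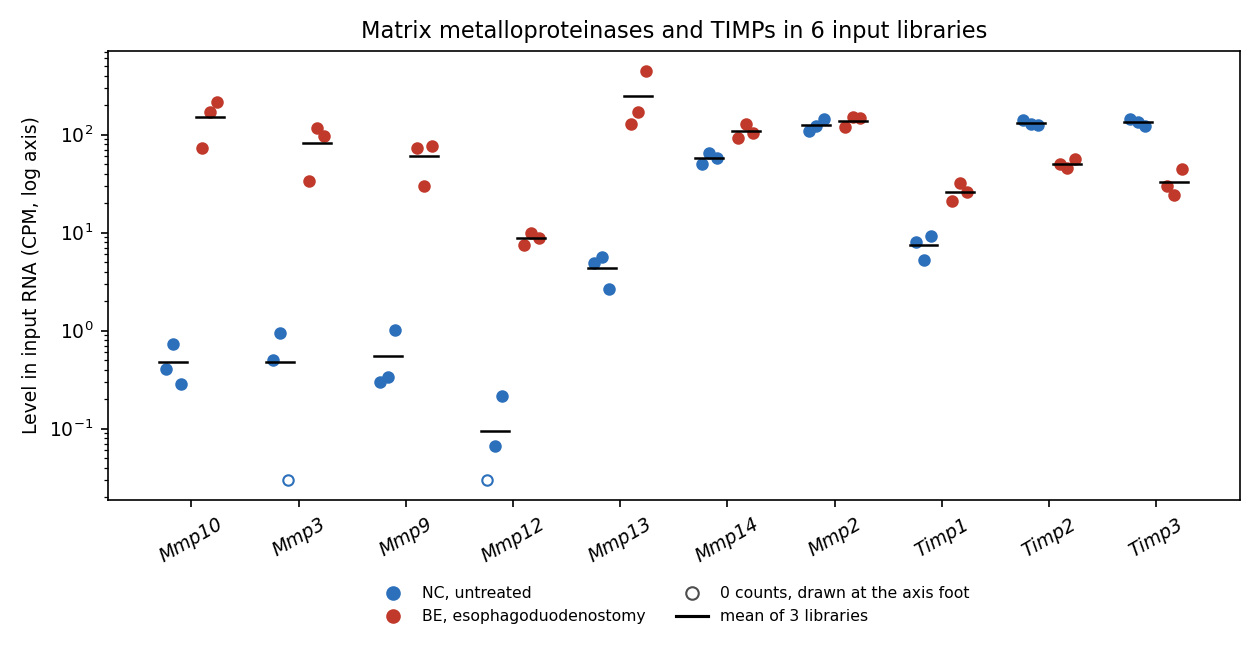
Level of each gene in CPM on a log axis, 1 point per input library, blue for NC and red for BE, with a line at the mean of 3 libraries and open circles for libraries with 0 counts. The red points lie above the blue ones for 7 genes and below them for Timp2 and Timp3, and the colours overlap for Mmp2.

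The stromelysins Mmp10 and Mmp3 both rose in BE by large folds. Mmp10 (ENSRNOG00000032832), stromelysin 2, cuts proteoglycans, laminin and fibronectin and activates procollagenases. It stood at 72.4, 171 and 215 CPM in BE replicates 1 to 3 and at 0.402, 0.739 and 0.287 CPM in NC replicates 1 to 3. Each BE library was far above each NC library, and BE replicate 1 was the lowest of its group. The log2 fold change was 8.27 ± 0.66 (SE, adjusted p = 0.000304), which placed Mmp10 at rank 13 of all rises among the genes tested. Mmp3 (ENSRNOG00000032626), stromelysin 1, has a similar range of substrates and also activates the proforms of other metalloproteinases. Its level was 33.6, 117.5 and 96.2 CPM in BE and 0.503, 0.940 and 0 CPM in NC. The 3 NC libraries held 5, 14 and 0 counts of Mmp3 against 638, 2049 and 1709 counts in BE, and BE replicate 1 was again the lowest of its group. The log2 fold change was 7.38 ± 1.00 (adjusted p = 0.00388), and it was 8.53 without NC replicate 2 and 6.76 without NC replicate 3. Without NC replicate 3 it lay below the values of Mmp9 (7.51) and Mmp12 (7.53), so the order of these genes rests on 1 library. Limma's voom with sample quality weights ended the call for Mmp3 (8.03, adjusted p = 0.0942). Mmp3 and Mmp10 are close paralogs, and the labels and files do not state how reads shared by both were assigned.

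Mmp13 (ENSRNOG00000008478), collagenase 3, is the main collagenase of rodents and cuts fibrillar collagens. It stood at 130, 171 and 445 CPM in BE and at 4.93, 5.64 and 2.66 CPM in NC. The groups did not overlap, but the BE libraries varied among themselves, with replicate 3 the highest. The log2 fold change was 5.82 ± 0.73 (adjusted p = 0.00321), and 5.09 without BE replicate 3. Unlike the other 4 secreted enzymes that rose by at least 16-fold, Mmp13 had at least 37 counts in each NC library.

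Mmp12 (ENSRNOG00000030187), macrophage metalloelastase, cuts elastin. Its level was 7.43, 9.98 and 8.83 CPM in BE and 0, 0.0672 and 0.216 CPM in NC. The BE libraries were close to each other, at 141 to 174 counts, while the 3 NC libraries held only 4 counts together. The ratio of summed counts, scaled for depth, was 84.4, with a 95% counting interval of 32.7 to 311. The fitted log2 fold change was 6.32 ± 0.69 (adjusted p = 5.60e-05), and 7.53 without NC replicate 3, the library that held 3 of the 4 counts. Markers of the macrophage, the cell for which Mmp12 is named, summed to 294 to 404 CPM in BE and 398 to 820 CPM in NC. These ranges overlap only through BE replicate 1 (404 CPM), the library that stood apart. BE replicates 2 and 3, at 294 and 358 CPM, lay below all NC libraries. None of the 7 tested macrophage markers rose and 2 fell, among them Csf1r, the receptor for colony stimulating factor 1, at 54.0 ± 1.34 CPM in BE and 111 ± 34.2 CPM in NC (SD, n = 3), and Cd163, a scavenger receptor, at 68.6 ± 9.19 and 117 ± 33.1 CPM. The share that fell was 28.6%, against 21.8% of all genes tested. The call for Cd163 was lost without BE replicate 2. Without BE replicate 1, C1qb also passed as lower (adjusted p = 0.0102).

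Of the 2 gelatinases, which cut denatured collagen and the type IV collagen of basement membranes, Mmp9 rose and Mmp2 did not pass the test. Mmp9 (ENSRNOG00000017539), gelatinase B, is stored in neutrophil granules and is also made by macrophages and keratinocytes. It stood at 73.6, 30.3 and 76.5 CPM in BE and at 0.302, 0.336 and 1.01 CPM in NC. BE replicate 2 was the lowest of its group and still far above all NC libraries. The log2 fold change was 6.72 ± 0.60 (adjusted p = 0.000150), and 7.51 without NC replicate 3. Neutrophil markers summed to 116 to 675 CPM in BE and 26.0 to 59.0 CPM in NC, and 3 of the 6 tested rose, among them S100a8 and S100a9, which keratinocytes also express under stress, and Mmp8, the neutrophil collagenase. Their part in the level of Mmp9 was not tested. The granule genes Mpo and Ltf had 0 counts in the BE libraries and only 15 and 1 counts in the NC libraries together, too few to be tested. Cxcr2, a chemokine receptor of neutrophils, did not pass, at 20.6 ± 2.41 CPM in BE and 24.2 ± 4.05 CPM in NC. Fcgr3a, at 10.4 ± 14.1 and 3.65 ± 6.23 CPM, and Csf3r, at 8.03 ± 2.42 and 2.24 ± 2.72 CPM, did not pass either. Csf3r passed as higher without NC replicate 3 (adjusted p = 0.0012), with DESeq2 (0.037), with voom (0.00649) and with replicate number as a block (0.0475). The calls for both S100a8 and S100a9 were lost without NC replicate 1 or NC replicate 2, which left Mmp8 alone, and that for S100a9 also without BE replicate 1 (adjusted p = 0.0572) or BE replicate 2 (0.0617). Mmp2 (ENSRNOG00000016695), gelatinase A, is made mainly by fibroblasts and other stromal cells. Its level was 119, 152 and 147 CPM in BE and 109, 122 and 143 CPM in NC. The groups overlapped, and the log2 fold change of 0.16 ± 0.14 (adjusted p = 0.381) had an interval of -0.11 to 0.43 at 1.96 SE. Fibroblast markers summed to 1459 to 1846 CPM in BE and 3404 to 3757 CPM in NC. Of 8 tested, Pdpn (podoplanin) rose, and Dpt (dermatopontin), Lum (lumican) and Dcn (decorin) fell. The shares that rose and fell were 12.5% and 37.5%, against 21.8% each way among all genes tested. Pdpn lost its call without BE replicate 2, and 5 markers fell without NC replicate 1. Their part in the level of Mmp2 was not tested.

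Mmp14 (ENSRNOG00000010947), the membrane-type enzyme MT1-MMP, cuts collagen at the cell surface and activates the proform of MMP2 there. Its level was 93.3, 128 and 105 CPM in BE and 49.7, 65.4 and 57.8 CPM in NC. All BE libraries were above all NC libraries, with a log2 fold change of 0.92 ± 0.15 (adjusted p = 0.000879). The 3 NC libraries held 2273 counts of Mmp14 together.

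**Figure D2:**
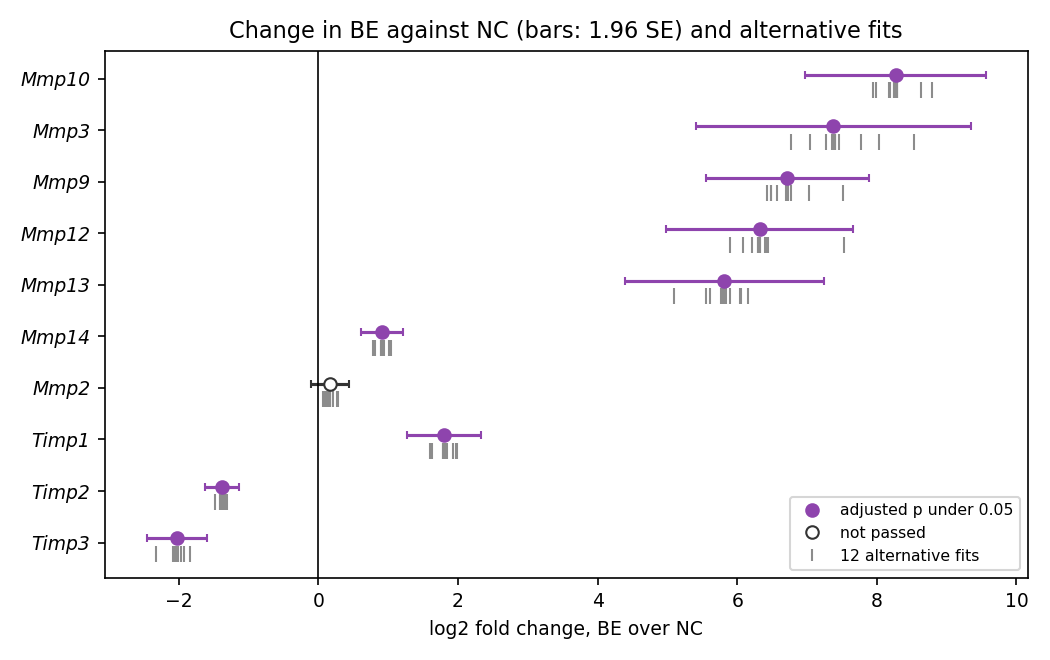
Log2 fold change of BE over NC for each gene, with bars of 1.96 SE, filled circles for genes that passed at an adjusted p under 0.05 and an open circle for Mmp2, which did not. Grey ticks show the 12 alternative fits, which lie on the same side of 0 as the main estimate for every gene shown.

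The 3 inhibitors differed in direction. Timp1 (ENSRNOG00000010208) encodes a secreted inhibitor that also binds the proform of MMP9. Its level was 21.0, 31.8 and 26.0 CPM in BE and 8.05, 5.31 and 9.27 CPM in NC. Every BE library was above every NC library, and the log2 fold change was 1.80 ± 0.27 (adjusted p = 0.000450). Timp2 (ENSRNOG00000003148) encodes an inhibitor that at low amounts links the proform of MMP2 to MMP14 at the cell surface, and at higher amounts blocks MMP14. It stood at 49.7, 45.4 and 56.9 CPM in BE and at 141, 128 and 126 CPM in NC. The BE libraries lay close together and well below NC, and Timp2 fell by 1.38 ± 0.12 on the log2 scale (adjusted p = 1.73e-05). Timp3 (ENSRNOG00000004303) encodes the inhibitor that binds to the extracellular matrix and also blocks ADAM17 and several ADAMTS proteases. Its level was 29.9, 24.0 and 45.1 CPM in BE and 146, 133 and 124 CPM in NC, again without overlap. Timp3 fell by 2.02 ± 0.22 on the log2 scale (adjusted p = 0.000114). Smooth muscle, striated muscle and fibroblast marker sums fell alongside Timp2 and Timp3, as given above, and their part in these falls was not tested. In the RefSeq gene table Timp1 overlaps Syn1, Timp3 overlaps Syn3 and Timp2 overlaps Cep295nl. Syn1 and Syn3 had at most 18 and 10 counts in any library, and the labels and files do not state whether counting used strand.

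Protease and inhibitor were also set against each other within each library for 3 pairs known to bind, as a log2 ratio of counts with 0.5 added. Such a ratio does not depend on library scaling, but its size depends on the lengths of both transcripts, so only its difference between groups is read. The log2 ratio of Mmp9 to Timp1 was 1.81, -0.07 and 1.56 in BE and -4.52, -3.85 and -3.16 in NC. It differed by 4.94 between the groups (1.10 ± 1.02 against -3.85 ± 0.68, SD, n = 3, exact permutation p = 0.1). For Mmp14 to Timp2, the ratio was 0.91, 1.498 and 0.88 in BE and -1.503, -0.97 and -1.13 in NC, a difference of 2.30. For Mmp2 to Timp2, it was 1.27, 1.74 and 1.37 in BE and -0.38, -0.07 and 0.18 in NC, a difference of 1.55. In all 3 pairs each BE library had a higher ratio than each NC library, and the two-sided exact permutation p of 0.1 for each, adjusted over the 3 also 0.1, is the smallest that 3 against 3 libraries allow. For Mmp2 to Timp2 the numerator itself did not pass the test, and Timp2 had fallen.

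**Figure D3:**
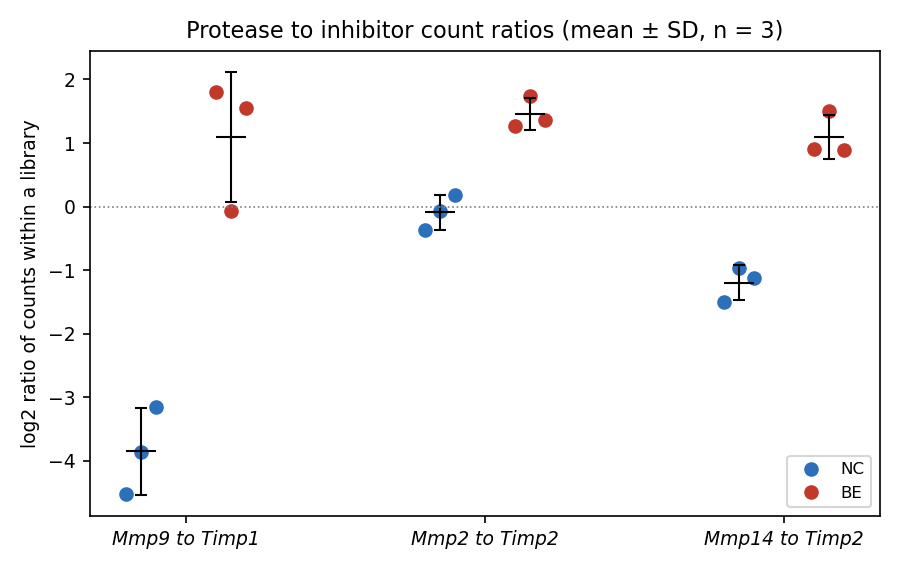
Log2 ratio of protease to inhibitor counts in each input library for the 3 pairs, blue for NC and red for BE, with mean and SD of 3 libraries. The red points lie above the blue points in each pair, with the widest gap for Mmp9 to Timp1.

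The promoters of 4 of the 5 genes that rose most are shown because these genes lie in 1 row of metalloproteinase genes and all 4 hold the same AP-1 letters close to the gene start. RefSeq's promoter table (GRCr8) had an entry for 7 of the 10 genes, and none for Mmp2, Mmp9 and Mmp14. On chromosome 8 the order of metalloproteinase genes is Mmp13, Mmp12, Mmp1b, Mmp3, Mmp1, Mmp10, Mmp8, Mmp27, Mmp20 and Mmp7. The 110 bases before the annotated start are given 5′ to 3′ on the + strand, on which these genes are read, and capitals mark the AP-1 heptamer TGAGTCA or its reverse complement TGACTCA.
Mmp13, chr8:12782719-12782828: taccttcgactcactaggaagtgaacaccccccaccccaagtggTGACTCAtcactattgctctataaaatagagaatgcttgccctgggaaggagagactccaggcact
Mmp12, chr8:12866542-12866651: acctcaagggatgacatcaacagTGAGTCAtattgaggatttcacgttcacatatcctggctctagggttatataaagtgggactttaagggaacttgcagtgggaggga
Mmp3, chr8:12925171-12925280: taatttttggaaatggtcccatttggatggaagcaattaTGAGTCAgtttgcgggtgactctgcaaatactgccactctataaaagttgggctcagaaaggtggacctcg
Mmp10, chr8:12974597-12974706: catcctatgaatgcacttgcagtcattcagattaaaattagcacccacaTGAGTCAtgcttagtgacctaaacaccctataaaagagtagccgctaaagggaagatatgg

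The heptamer began 66 bases before the start in Mmp13, 87 in Mmp12, 71 in Mmp3 and 61 in Mmp10. Over the 250 bases before each start, 4.05% of the 33469 promoters in the table held it on either strand, as did 4 of the 7 genes with an entry. No match was found in the 250 bases before Timp1, Timp2 or Timp3. Among the other metalloproteinase and TIMP genes, 2 of 14 with an entry held it, Mmp1 and Mmp7, and neither had enough counts to be tested. Mmp8, which lies in the same row of genes and also rose, had no match. The TATA letters TATAAA, searched on both strands, were present in 12.9% of all promoters, in 4 of the 7 genes with an entry (Mmp3, Mmp10, Mmp12 and Mmp13) and in 5 of the 14 relatives (Mmp1, Mmp7, Mmp8, Mmp20 and Mmp21). A match describes letters only, since no binding was measured.

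**Figure D4:**
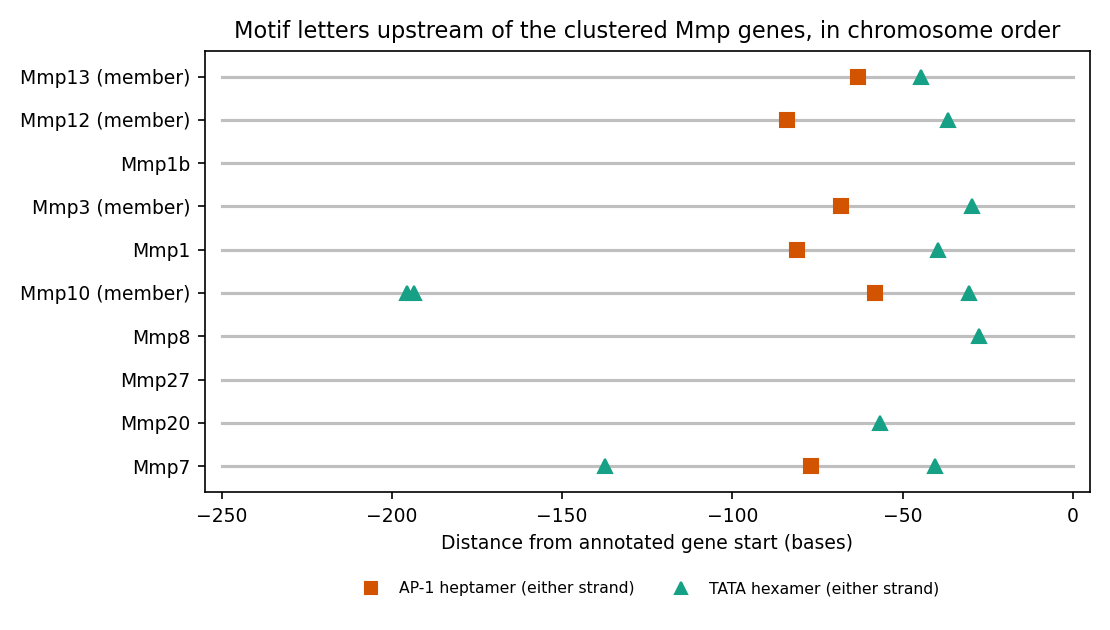
Places of the AP-1 heptamer (squares) and the TATA hexamer (triangles) in the 250 bases before the annotated start of 10 metalloproteinase genes of chromosome 8, listed in chromosome order, with distance from the start in bases at the centre of each match. The squares of Mmp13, Mmp12, Mmp3 and Mmp10 lie within 87 bases of the start, and Mmp8 has a triangle and no square.

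The m6A peaks fell on some of the 10 genes in every library and on others in none. Mmp2, Mmp14, Timp2 and Timp3 had a peak in all 6 IP lists, as did 46.5% of the genes tested. Mmp9, Mmp10, Mmp12 and Mmp13 had none in any list, as did 27.4%. Mmp3 had 1 peak in 1 BE list and Timp1 had 1 peak in another, so 6 of the 10 genes had peaks in at most 1 list, against 33.4% of all genes tested. No gene of the 10 had peaks in all BE lists and in no NC list or the reverse, patterns found in 1.82% and 1.69% of genes tested. Of the 115 genes that rose by at least 16-fold, 53.0% had peaks in at most 1 list, 5.22% in all 6 lists, and 24.3% had them in all 3 BE lists and no NC list. Among the 9598 genes with a mean level between that of Mmp12 (4.42 CPM) and that of Mmp13 (126 CPM), 27.2% had a peak in at most 1 list and 52.6% in all 6. Mmp10 and Mmp13 exceeded 70 CPM in every BE input library and still had no peak named for them in the BE lists. The files give no depth for the IP libraries, so a missing peak is not a measure of absent methylation.

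The 54 peaks merged into 15 regions, 7 of them in all 6 lists, 2 in 3 lists and 6 in 1 list. Without BE list 1, whose library has the same replicate number as the input library that stood apart, 12 regions were left, and the same 4 genes had peaks in all lists. The fold enrichments below are the authors' values per peak and serve only to place a peak within its own list. Mmp14 had the most enriched region, 867 bp on chromosome 15 from 36968640 to 36969506. Its fold enrichment was 65.15, 84.0 and 93.5 in the BE lists and 64.1, 82.4 and 60.4 in the NC lists, at or above percentile 96.4 of each list, and its score was at the ceiling of 3100 in all 6. Timp2 had 4 regions on chromosome 10, each in all 6 lists. The widest, 257 bp from 107020814 to 107021070, lay at or above percentile 90.2 of each list, at 61.45, 51.25 and 40.1 in BE and 91.1, 31.8 and 51.8 in NC. The other 3 Timp2 regions, 101 to 125 bp wide, had fold enrichments from 4.09 to 22.2. These 4 regions were found in BE although the level of Timp2 fell there.

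The Timp3 region found in all lists covered 409 bp of chromosome 7 from 23743964 to 23744372. Its fold enrichment was 25.4, 18.7 and 36.6 in BE and 31.5, 27.8 and 33.9 in NC, at or above percentile 77.7 of each list. Mmp2 had 1 region in all lists, 864 bp of chromosome 19 from 26629728 to 26630591, with lower values of 3.83 to 9.17. Another 2 regions of Mmp2 appeared in BE lists 1 and 3 and in NC list 2. The single Mmp3 peak, 443 bp of chromosome 8 from 5700985 to 5701427 in BE list 3, had a fold enrichment of 2.86 and a score of 76.0, where the lowest score in that list was 50.01. The single Timp1 peak was 38 bp wide, on chromosome X from 2184552 to 2184589 in BE list 1, with a fold enrichment of 3.37 and a score of 77.6. These coordinates are on the build of the deposited lists, which the labels and headers do not name, and differ from those of the promoters above. The 9 regions found in several lists had identical borders in each of them, so widths do not differ between lists.

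**Figure D5:**
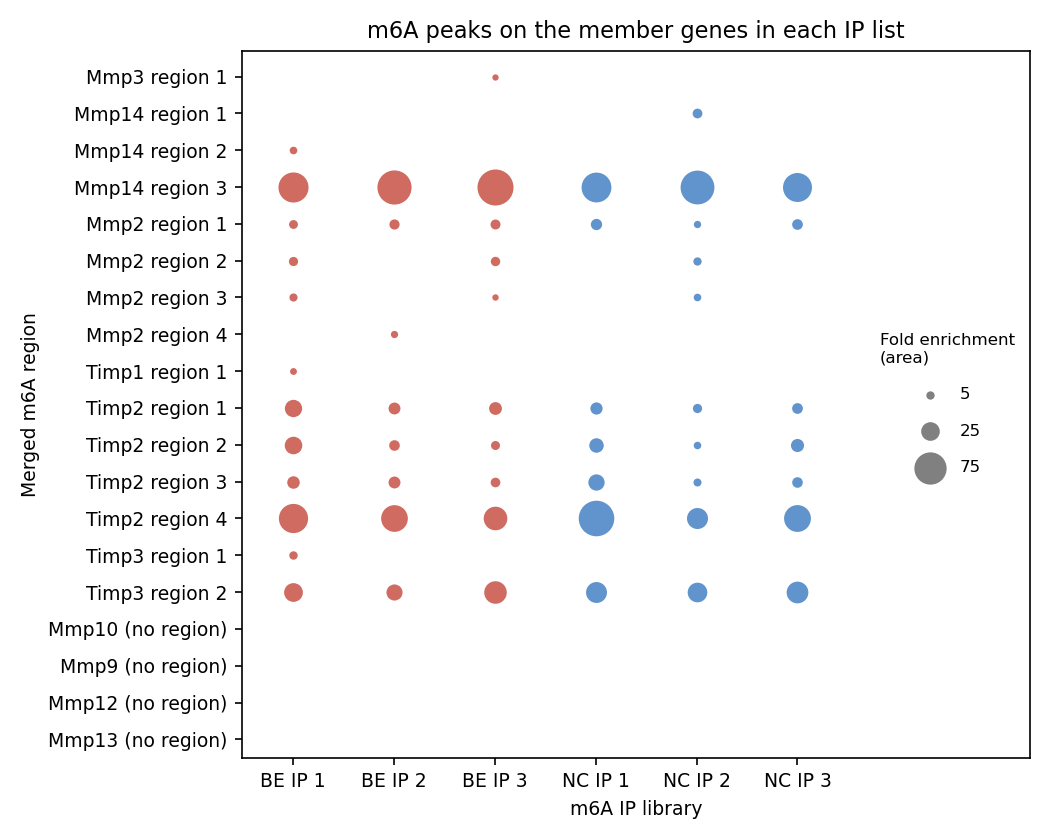
Each row is a merged m6A region of the genes, each column an IP list, red for BE and blue for NC, and the area of a circle shows the authors' fold enrichment of that peak. Mmp14 region 3 and Timp2 region 4 have the largest circles in all 6 lists, and Mmp9, Mmp10, Mmp12 and Mmp13 have none.

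The other metalloproteinases and Timp4 moved both ways. Of 17 listed genes, 16 were in the table and 10 were tested. Those tested split into 2 that rose, 2 that fell and 6 that did not pass, with a median log2 fold change of -0.55. The rate among all genes tested was 21.8% each way, and neither share in this list was higher. Mmp8 rose from 1 count in the 3 NC libraries to 142 in BE, a ratio of 101.5 with a 95% counting interval of 17.9 to 4039. Mmp19, a metalloproteinase of basement membrane substrates, rose by a log2 fold change of 0.85 ± 0.26 (adjusted p = 0.0245), a call lost without BE replicate 1, NC replicate 2 or NC replicate 3. Mmp15, a second membrane-type enzyme, fell by 1.35 ± 0.26 on the log2 scale (adjusted p = 0.00217). Timp4, an inhibitor abundant in heart and muscle, fell by 2.04 ± 0.50 (adjusted p = 0.00800), a call lost without NC replicate 2. Of those that did not pass, Mmp11 (stromelysin 3) stood at 3.36 ± 0.79 CPM in BE and 6.24 ± 1.22 CPM in NC. Timp2, Timp3 and Timp4 thus fell and Timp1 rose.

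Genes that activate metalloproteinases or otherwise hold them in check were followed next. Of 19 tested, 10 rose and 4 fell, with a median log2 fold change of 0.85. These shares of 52.6% and 21.05% stood against 21.8% each way among all genes tested. Reck, a membrane-anchored inhibitor of MMP2, MMP9 and MMP14, stood at 17.3 ± 1.28 CPM in BE and 64.4 ± 3.27 CPM in NC. It fell by 1.89 ± 0.14 on the log2 scale (adjusted p = 4.50e-06), the same direction as Timp2 and Timp3. The others that fell were the proprotein convertases Pcsk5, by 1.57 ± 0.20, and Pcsk6, by 1.00 ± 0.14, and Lrp1, a receptor that clears proteases, by 0.35 ± 0.10. The call for Lrp1 was lost without NC replicate 3. Plat, the tissue plasminogen activator, rose by 1.65 ± 0.14, St14 (matriptase, a surface protease that can activate proMMP3) by 1.31 ± 0.13 and Cd44, a hyaluronan receptor that holds MMP9 at the cell surface, by 1.62 ± 0.13, each on the log2 scale. Ctsb, the lysosomal protease cathepsin B, and Bsg (basigin, an inducer of metalloproteinases) did not pass, at 542.5 ± 18.5 against 481 ± 92.9 CPM and 126 ± 20.2 against 116 ± 12.1 CPM in BE and NC.

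Among genes known to induce transcription of metalloproteinases, 18 of 30 tested rose, 3 fell and 9 did not pass, with a median log2 fold change of 1.57. The rate among all genes tested was 21.8% each way, so rises were more common in this list and falls less common. Fosl1, a Fos-family subunit of AP-1, stood at 28.5, 47.5 and 65.2 CPM in BE and at 0.604, 0.940 and 1.15 CPM in NC. Its log2 fold change was 5.67 ± 0.39. Il1b, the cytokine interleukin 1 beta, rose by 4.50 ± 0.40, Elf3, an epithelial ETS-family factor, by 3.68 ± 0.25 and Il24, a cytokine of the interleukin 10 family, by 7.82 ± 0.58. The 3 that fell were Jun, from 92.4 ± 14.9 to 36.45 ± 3.50 CPM, Jund and Etv5, and the call for Etv5 was lost without NC replicate 1. Ets1 and Ets2 did not pass, with log2 fold changes of 0.36 ± 0.18 and 0.21 ± 0.11. Of the other AP-1 subunits, Junb rose by 1.935 ± 0.17 and Fosl2 by 0.45 ± 0.14 on the log2 scale. The call for Fosl2 was lost without BE replicate 2, BE replicate 3 or any 1 NC replicate. Fos and Fosb did not pass, with log2 fold changes of 0.99 ± 0.69 and -2.03 ± 0.89. The AP-1 subunits thus did not move together.

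Substrates of the enzymes moved both ways. Of 22 tested, 8 rose, 7 fell and 7 did not pass, with a median log2 fold change of 0.18. The shares that rose and fell were 36.4% and 31.8%, against 21.8% each way among all genes tested. Tnc (tenascin C, a matrix protein of repair) rose by 2.49 ± 0.15 and Lamb3, a laminin chain of epithelial basement membrane, by 1.33 ± 0.16 on the log2 scale. Dcn (decorin, a small proteoglycan that binds collagen) fell by 1.33 ± 0.11 and Fn1 (fibronectin) by 1.05 ± 0.10. Col1a1, a chain of type I collagen, did not pass, at 413 ± 84.5 CPM in BE and 637 ± 208 CPM in NC. Among ADAM and ADAMTS proteases, relatives of the metalloproteinases, 7 of 18 tested rose (38.9%), 4 fell (22.2%) and 7 did not pass. Adam17, the tumor necrosis factor converting enzyme that TIMP3 blocks, rose by 0.82 ± 0.13 (adjusted p = 0.000595), while Timp3 fell. Adamts20 fell by 4.51 ± 0.34, from 53.4 ± 3.65 to 2.33 ± 1.10 CPM. Adamts7 rose by 2.12 ± 0.41, from 2.00 ± 0.82 to 8.75 ± 1.24 CPM. Adamts2, which trims procollagen, fell by 1.42 ± 0.28, Adam33 by 1.38 ± 0.29 and Adamts5, an aggrecanase, by 0.96 ± 0.28. All 4 that fell are named here, but only some of the 7 that rose. The call for Adamts5 was lost without BE replicate 3, NC replicate 1 or NC replicate 2.

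The gene nearest in profile to each of the 10 was found as the smallest root mean square distance of centred log2 CPM over the 6 input libraries among 12452 other genes. For Mmp3 it was Il24 at a distance of 0.796, for Mmp13 it was Ptgs2, which encodes the cyclooxygenase COX-2, at 0.509, and for Mmp10 it was Irx1, an Iroquois homeobox gene, at 0.505. Mmp9 was nearest to Stfa2l3 at 0.446 and Mmp12 to Sh2d5 at 0.282. The genes with smaller changes had closer neighbours: Mbtd1 for Mmp2 and Aldh16a1 for Mmp14 at 0.052 and 0.035, Mcph1 for Timp1 at 0.068, Lpp for Timp2 at 0.035 and Zfp358 for Timp3 at 0.117. The likeness rests on 6 libraries in 2 groups and so includes the difference between BE and NC.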

How the data were processed

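Esophageal tissue of BE and NC rats gave 12 libraries, 3 input and 3 m6A-IP libraries a group, with groups and replicate numbers from the labels. Per the submitters' processing notes, cutadapt 1.9.3 and HISAT2 2.0.4 were used. Genome build, annotation, counting tool and use of strand are not given in the sources read here. The authors deposited whole-number counts per gene for the input libraries, and 6 normalized per-sample columns were not used. Of 17450 genes, 32 had no symbol. For 210 shared symbols the gene with the highest count carried the symbol, and the others were kept under their identifiers. Per the file headers, each IP library had its own peak list with a score made from log10 of p and a fold enrichment ratio, both the authors' values. The scores stop at 3100. Peak positions are printed counting from 1, assuming BED-style lists that start at 0.

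The 10 genes and all other lists were chosen with earlier results of these data known, so the counts are descriptions. edgeR 4.0.16 in R 4.3.3 fitted the counts with filterByExpr (a minimum count of 10, or 0.629 CPM, reached by 3 libraries), scaled by TMM, with two-sided robust quasi-likelihood tests without covariates. Benjamini-Hochberg adjustment ran over 13761 genes, leaving 3689 untested. The code was tested on simulated data. Ratios were compared by exact permutation tests, and peaks were merged at an overlap of at least 1 bp. Named genes were, per list, up to 4 that passed with the smallest adjusted p and up to 2 that did not pass with the highest level, and further genes where a count of 5 or fewer was completed. All AP-1 subunits among the inducers were also named. Counting intervals (95%) are exact and leave out all error other than counting, as PCR copies were not marked. Alternatives used DESeq2 1.42.0, limma 3.58.1 (voom), other scalings, no low-count filter, a replicate block and leaving out each library. Tables and figures were made in Python 3.11.15 with SciPy 1.17.1, NumPy 2.4.6, matplotlib 3.10.9 and pandas 2.3.3.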

Additional observations from a re-analysis of the deposited data

How the results depend on the processing

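Of 120 values of the 10 genes under 12 alternative fits, 119 kept their direction and side of the threshold, and Mmp3 with voom (8.03, adjusted p = 0.0942) lost its call; the cause was not tested. The number of these genes that passed was 9 in each fit other than voom, where it was 8. Leaving out 1 library moved the number of genes called from 5995 to between 4903 and 6154. The labels do not state that replicate numbers pair the samples. Deviations of libraries with the same number correlated at -0.0322, 0.0142 and -0.0596, which cannot show whether the samples were paired. The fit with the replicate block called 5223 genes, 9 of them among the 10. Without 1 library, log2 fold changes ran from 6.76 to 8.53 for Mmp3, 6.43 to 7.51 for Mmp9, 5.89 to 7.53 for Mmp12 and 5.09 to 6.16 for Mmp13. The ratio differences ran from 4.59 to 5.53 for Mmp9 to Timp1, 1.40 to 1.68 for Mmp2 to Timp2 and 2.10 to 2.41 for Mmp14 to Timp2, where 2 against 3 libraries allow no p under 0.2. S100a8 and S100a9 lost their calls under the replicate block (adjusted p 0.0835 and 0.156) and voom (0.217 and 0.141). Keeping only peaks with a score of at least 100 reduced the 15 merged regions to 9, since 6 rest on weaker peaks. With a fold enrichment of at least 5, 3 genes in place of 4 kept peaks in all 6 lists.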

Other observations

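Peaks were also named for metalloproteinases outside the 10 genes. Mmp24, a membrane-type enzyme, averaged 0.0938 CPM in BE and 0.249 CPM in NC and was not tested for expression. It had a region in all 6 IP lists with fold enrichments of 10.2 to 23.5 and a highest score at the ceiling of 3100. The input libraries held only 5 counts of Mmp24 in BE and 8 in NC. Whether the region belongs to another transcript at that place was not tested. Mmp15, a second membrane-type enzyme that fell in BE, had 3 regions in all 6 lists. Mmp28, at under 1 CPM, had 2 regions in all 6 lists. Both were 410 bp wide, with fold enrichments of 13.6 to 31.6 and 13.0 to 29.9. Whether they are 1 site listed at 2 places was not tested. Mmp25 had a region in all 3 BE lists and in no NC list, at 1.66 ± 0.57 CPM in BE and 0.77 ± 0.58 CPM in NC (SD, n = 3).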
